A study of Mus musculus with 9 samples.

Results

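miR-22-3p (mmu-miR-22-3p) is the 3p strand of the miR-22 hairpin, and it was 1 of the 722 miRNA entries counted in exosomes from mouse liver. It was chosen by its abundance, that is, by its counts in all 9 libraries, in which it ranked 6th by mean share. That level is therefore given as a description without a test. Exosomes are small vesicles that cells release, and here they were collected from medium that had held digested liver. The study compared 3 groups of 3 libraries, each taken as 1 mouse. KO HFFC mice carried floxed Hsp90β (Hsp90ab1) with an Albumin-Cre transgene and ate HFFC, a feed rich in fat, fructose and cholesterol. Flox HFFC mice had the floxed gene without Cre on the same diet, and flox chow mice had it on normal chow. All 9 mice thus carried the floxed allele. Albumin-Cre acts in the hepatocyte lineage, so endothelial, immune and stellate cells of KO livers keep Hsp90β and add to the exosome pool. The labels give no strain, age or feeding time for these libraries, and a table of miRNAs cannot show the deletion itself. The sample titles and the study's methods name exosomes as the source of the RNA, whereas the protocol text of the labels speaks of RNA extracted from tissue.

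A miRNA is cut from a hairpin as a duplex of a 5p and a 3p strand, 1 of which is usually kept by an Argonaute protein while the other is degraded. The kept strand then pairs through its seed, the bases near its 5′ end, with target mRNAs and lowers their output. miR-22 is made in many tissues, including liver, heart, skeletal muscle and red cell precursors. Among its known targets is Tet2, which oxidises methylated cytosine. The hairpin is transcribed within the noncoding host gene Mir22hg.

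The sequences of both strands are shown because the strand choice and the seed define what is counted here, with the seed (bases 2 to 8) in capitals (RefSeq, GRCm38.p6).
miR-22-3p: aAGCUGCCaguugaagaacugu
miR-22-5p: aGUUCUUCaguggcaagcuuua
The hairpin that holds them is given with both strands in capitals, the 5p strand at its bases 19 to 40 and the 3p strand at its bases 57 to 78.
Mir22 hairpin: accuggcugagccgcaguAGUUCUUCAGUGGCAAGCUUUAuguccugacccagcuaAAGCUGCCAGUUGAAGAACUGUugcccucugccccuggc

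The hairpin lies on the plus strand of chromosome 11, at chr11:75463716-75463810 (GRCm38), and the 3p strand takes chr11:75463772-75463793 within it. By GENCODE M21 it is wholly inside exon 2 of Mir22hg (75463693 to 75463857 in transcript Mir22hg-202) and also inside exon 2 of a noncoding transcript of the neighbouring gene Tlcd2. In the minimum free energy fold of the hairpin (−41.9 kcal/mol), 19 of the 22 bases of miR-22-3p paired with the 5p strand, including all 7 seed bases. No other of the 1679 mature miRNA names in the RefSeq table had the seed of miR-22-3p, and none shared that of miR-22-5p. miR-22-3p therefore had no seed family whose members could be followed beside it. The closest other mature sequence was that of miR-3966 on chromosome 10, at an edit distance of 3 and with its seed shifted by 1 base.
miR-3966: aGCUGCCAgcuguagaacugu
Among the entries with counts here the closest sequence was at an edit distance of 9. Of the 591 entries with a miRBase-style name, 498 were matched to a mature sequence for these searches.

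The libraries held 218256 to 681286 miRNA counts, and the highest total was 3.12 times the lowest. The hepatocyte miRNA miR-122-5p was the most abundant in all 9. No library pair within a group agreed within sampling noise (chi-square per degree of freedom 60.6 to 228). Flox chow replicate 3 was the shallowest library and carried 0.604% of its counts on 4 muscle and heart miRNAs, against 0.00734% to 0.0280% in the other 8.

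miR-22-3p had 24801, 21403 and 12112 counts in KO HFFC replicates 1 to 3. It had 9649, 19451 and 14976 counts in flox HFFC and 18111, 42477 and 6679 in flox chow. In all it drew 169659 counts, and its highest count was 6.36 times its lowest, a wider range than that of the library totals. The lowest count fell in the shallowest library and the highest in the deepest. Counts of miR-192-5p and miR-26a-5p, the neighbours of miR-22-3p in mean share, varied 4.74-fold and 5.33-fold, and those of miR-122-5p 1.44-fold. Within the libraries miR-22-3p ranked 4th, 6th and 6th in KO HFFC, 7th, 11th and 7th in flox HFFC, and 7th, 4th and 8th in flox chow. It was thus among the 11 most abundant miRNAs everywhere, and its ranks overlapped between flox HFFC and flox chow and between KO HFFC and flox chow.

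As a share of all miRNA counts, miR-22-3p made up 5.87%, 4.68% and 3.95% in KO HFFC (95% Wilson intervals 5.80% to 5.94%, 4.62% to 4.74% and 3.88% to 4.02%). In flox HFFC the shares were 3.29% (3.22% to 3.35%), 3.22% (3.17% to 3.26%) and 3.71% (3.65% to 3.77%). In flox chow they were 3.73% (3.68% to 3.78%), 6.23% (6.18% to 6.29%) and 3.06% (2.99% to 3.13%). The intervals cover counting error only. In KO HFFC and flox chow no intervals of a group met, while those of flox HFFC replicates 1 and 2 did. The group means were 4.83% ± 0.967 in KO HFFC, 3.40% ± 0.268 in flox HFFC and 4.34% ± 1.67 in flox chow (SD, n = 3 each). Flox HFFC was the tightest group, and flox chow spanned both the highest and the lowest share of the series.

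**Figure D1:**
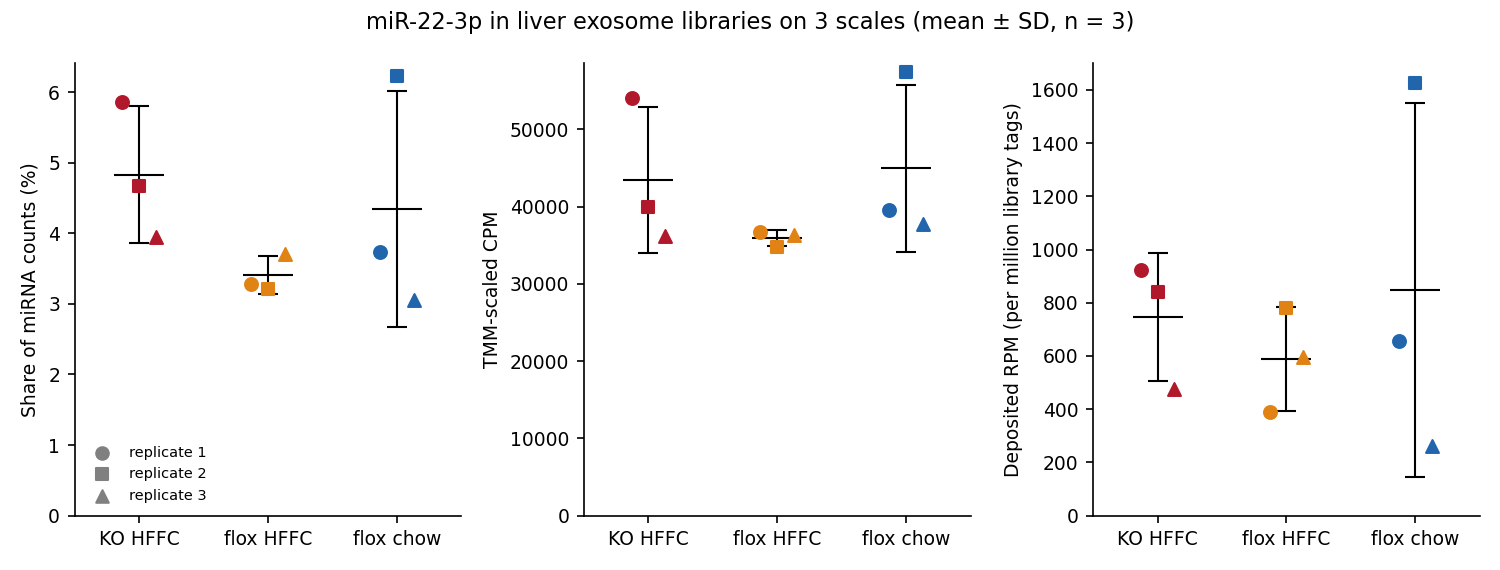
miR-22-3p in each library as a share of miRNA counts (%, left), as TMM-scaled CPM (middle) and as the deposited RPM (right), with symbols for replicates 1 to 3 and black bars for the mean ± SD (n = 3). On the left the 3 KO HFFC libraries (3.95% to 5.87%) sit above the 3 flox HFFC libraries (3.22% to 3.71%), which is not so in the other panels, and flox chow replicate 2 is the highest point in every panel.

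The order of the groups depended on the scale. CPM here divides by library totals corrected with TMM factors, which balance the bulk of miRNAs between libraries. These factors were 1.09, 1.18 and 1.10 in KO HFFC, against 0.898, 0.925 and 1.02 in flox HFFC and 0.944, 1.09 and 0.812 in flox chow. On this scale miR-22-3p had 54091, 39935 and 36149 CPM in KO HFFC, against 36652, 34814 and 36368 in flox HFFC and 39588, 57397 and 37777 in flox chow. The lowest KO HFFC library then fell within the range of flox HFFC. Means were 43392 ± 9457 CPM in KO HFFC, 35945 ± 990 CPM in flox HFFC and 44921 ± 10843 CPM in flox chow (SD, n = 3 each), so that KO HFFC came next to flox chow and overlapped it.

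The RPM values deposited by the authors divide by all tags of a library, of which miRNAs were 0.849% to 2.61%. They were 925, 839 and 475 RPM in KO HFFC, against 388, 779 and 595 RPM in flox HFFC and 657, 1627 and 259.9 RPM in flox chow. On this scale all 3 groups overlapped. Flox HFFC had the lowest mean on each of the 3 scales, and KO HFFC and flox chow changed places between the share and the other scales.

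The comparison of KO HFFC with flox HFFC addressed the loss of Hsp90β from hepatocytes under HFFC. miR-22-3p had a log2 fold change of 0.27 ± 0.23 (SE) with a 95% interval from −0.24 to 0.78, and it did not pass edgeR's quasi-likelihood test (adjusted p = 0.817 over 248 tested entries). Its p ranked 81st of the 248. In this comparison 0% of entries passed at an adjusted p of 0.05 with edgeR, 8.06% (20) had an unadjusted p under 0.05, limma-voom called 0 and DESeq2, run without the filter on 718 entries, called 5, miR-22-3p not among them. The share of miR-22-3p was higher in each KO HFFC library than in each flox HFFC library. That was so for 10.5% of the tested entries, and the pattern was already known when miR-22-3p was chosen, so it is no independent support. In CPM the groups overlapped for miR-22-3p, while 6.85% of entries were higher in every KO HFFC library. In RPM they overlapped too. The fold change rested on KO HFFC replicate 1, since without it the log2 value was 0.03. With totals of miRNA counts and no TMM factors it was 0.51, and the median of all tested entries moved by 0.24 as well, so that miR-22-3p stood 0.30 above that median.

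The comparison of flox HFFC with flox chow addressed the diet. miR-22-3p had a log2 fold change of −0.32 ± 0.23 (SE), with a 95% interval from −0.83 to 0.19 and an adjusted p of 0.985 (edgeR). 0% of the 248 entries passed, 4.44% (11) had an unadjusted p under 0.05, and DESeq2 and limma-voom called 0. In CPM the flox HFFC libraries all lay below the flox chow libraries, as they did for 3.63% of entries. As a share the groups overlapped, because flox chow replicate 3 (3.06%) was below all 3 flox HFFC libraries. Flox chow replicate 2 carried most of the difference, and without it the log2 fold change was −0.13.

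KO HFFC was also set directly against flox chow, where diet and genotype both differ and cannot be told apart. miR-22-3p had a log2 fold change of −0.05 ± 0.23 (SE), with a 95% interval from −0.56 to 0.46 and an adjusted p of 0.925 (edgeR). Its sign turned with the scaling and with the libraries used. 0% of entries passed with edgeR, 12.9% (32) had an unadjusted p under 0.05, limma-voom called 0 and DESeq2 called 6, miR-22-3p not among them. The flox libraries are shared between the comparisons, so the 3 fold changes are not independent. A lower share of 1 cell type's vesicles and a lower content per vesicle cannot be told apart in such bulk libraries.

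**Figure D2:**
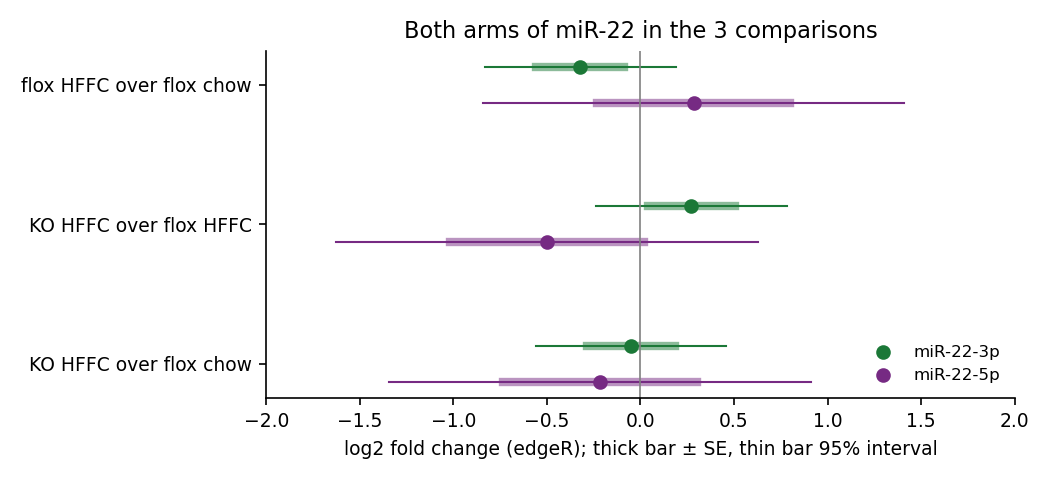
edgeR log2 fold changes of miR-22-3p (green) and miR-22-5p (purple) in the 3 comparisons, with thick bars for ± SE and thin bars for the 95% interval. All 6 intervals include 0, and the arms lie on opposite sides of 0 in the upper 2 comparisons.

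The biological coefficient of variation of miR-22-3p, the spread between libraries of a group beyond counting, was 32.5%, against 55.0% for the table as a whole. The 4 entries with a lower one were all among the 20 most abundant, whose median was 33.8%, so that miR-22-3p was close to miRNAs of like abundance.

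The 5p strand of the same hairpin was not used to choose miR-22-3p. It had 60, 67 and 17 counts in KO HFFC, against 43, 74 and 58 in flox HFFC and 59, 123 and 10 in flox chow, or 511 in all. miR-22-5p stood at place 144 by mean share. Its level was 131, 125 and 50.7 CPM in KO HFFC, against 163, 132 and 141 CPM in flox HFFC and 129, 166 and 56.6 CPM in flox chow. In CPM the KO HFFC libraries were all below the flox HFFC libraries, by a narrow gap (131 against 132 CPM), as were those of 7.26% of the entries. As a share of miRNA counts and in RPM these groups overlapped for miR-22-5p. KO HFFC replicate 3 and flox chow replicate 3 were low. These 2 values rest on 17 and 10 counts, and flox chow replicate 3 was the shallowest library. KO HFFC replicate 3 had 306626 miRNA counts, and flox HFFC replicate 1, at 163 CPM, had 293708. The part of depth in the low values was not tested. The log2 fold changes of miR-22-5p were −0.50 ± 0.52 for KO HFFC over flox HFFC, 0.28 ± 0.52 for flox HFFC over flox chow and −0.22 ± 0.52 for KO HFFC over flox chow (SE). None passed (edgeR adjusted p of 0.864, 0.985 and 0.925).

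The ratio of the strands within a library does not depend on scaling. miR-22-3p outnumbered miR-22-5p 413-fold, 319-fold and 712-fold in KO HFFC, against 224-fold, 263-fold and 258-fold in flox HFFC and 307-fold, 345-fold and 668-fold in flox chow. The 5p strand thus made up between 0.140% (Wilson interval 0.0875% to 0.224%) of miR-22 counts in KO HFFC replicate 3 and 0.444% (0.330% to 0.597%) in flox HFFC replicate 1. Of 32 hairpins with both strands tested, only that of miR-148a had a higher mean log2 ratio of 3p to 5p than miR-22, at 8.47. The 3p strand was the higher on average in 13 of the 32. By the mean absolute log2 ratio, whichever strand was higher, miR-22 stood 4th, and the median over these hairpins was 2.58. Since miR-22-3p was chosen for its counts, a high ratio was favoured in advance, and these places are a description without a test.

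Flox HFFC had the lowest ratios in the series, and its 3 libraries overlapped neither KO HFFC nor flox chow. The mean log2 ratio was 8.81 ± 0.574 in KO HFFC and 7.94 ± 0.128 in flox HFFC (SD, n = 3 each), a difference of 0.87 (exact two-sided permutation p = 0.1). Ratios that did not overlap and were higher in KO HFFC were found for 6.25% of the 32 hairpins, namely those of miR-22 and miR-122, and the median difference over hairpins was −0.02. Flox HFFC differed from flox chow (8.66 ± 0.570) by −0.72 (exact permutation p = 0.1), and miR-22 was the 1 hairpin of the 32 (3.12%) with lower ratios that did not overlap. The median of this difference over all 32 hairpins was 0.05. Both p values are the smallest that 3 against 3 libraries allow, and adjusted over the 3 comparisons they were 0.15. No difference of any size could therefore have passed at 0.05, and the test cannot decide. The ratios also hold the miR-22-3p counts by which it was chosen, so their differences are no independent support. KO HFFC and flox chow overlapped and differed by 0.14 (exact permutation p = 0.6). The KO HFFC difference rests on 17 to 74 counts of the 5p strand per library and the flox chow difference on 10 to 123. Without KO HFFC replicate 3 the KO HFFC difference was 0.55, and without flox chow replicate 3 the flox chow difference was −0.40.

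**Figure D3:**
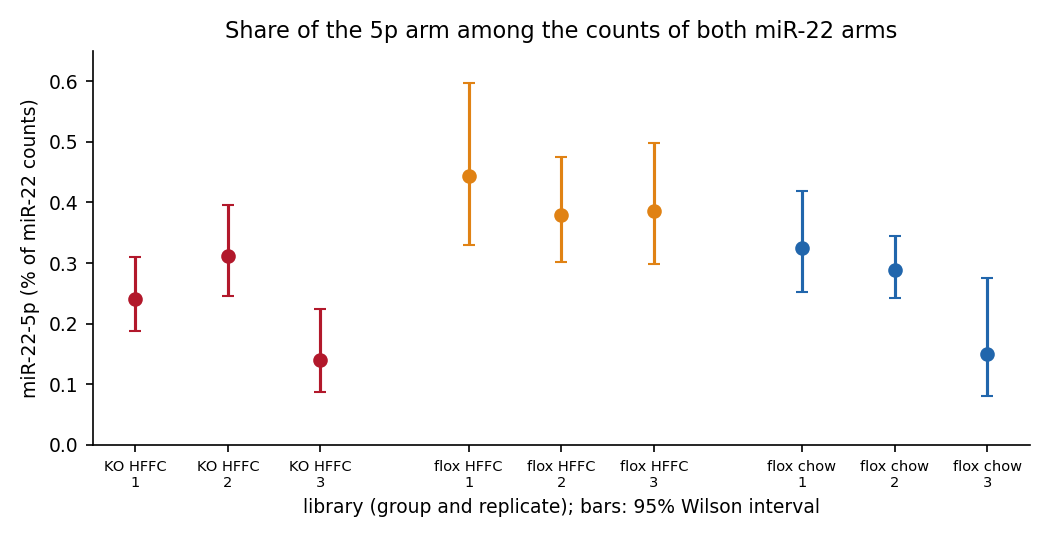
Share of miR-22-5p among the counts of both miR-22 strands (%) in each library, coloured by group, with 95% Wilson intervals for counting error. The flox HFFC libraries (0.379% to 0.444%) are all above the KO HFFC (0.140% to 0.312%) and flox chow (0.149% to 0.325%) libraries, with intervals that reach into each other for several pairs.

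By mean share miR-22-3p (4.19%) stood between miR-192-5p (5.21%), a hepatocyte and gut miRNA, and miR-26a-5p (3.49%), a widely made miRNA. Both are printed with their seeds in capitals to show that these neighbours in abundance have unrelated seeds.
miR-192-5p: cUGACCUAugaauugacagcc
miR-26a-5p: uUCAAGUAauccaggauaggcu
miR-22-3p exceeded miR-192-5p in 2 of 9 libraries, KO HFFC replicate 1 (5.87% against 5.85%) and flox chow replicate 2 (6.23% against 5.52%). It exceeded miR-26a-5p in 7 of 9, the exceptions being flox HFFC replicates 1 and 2. The mean shares of miR-26a-5p were 3.32% ± 0.353 in KO HFFC, 3.54% ± 0.676 in flox HFFC and 3.61% ± 1.06 in flox chow (SD, n = 3 each). In flox HFFC and flox chow the ranges of the shares of miR-22-3p and miR-26a-5p overlapped, and in KO HFFC they did not. Within each library, however, miR-22-3p was the higher throughout flox chow as it was throughout KO HFFC. Counts of different miRNAs also depend on how well each is ligated, so these orders are orders of counts and not of copies. Over the 9 libraries the share of miR-22-3p varied 2.04-fold, close to the median of 2.01-fold of the 20 most abundant miRNAs, while that of the p53-induced miR-34a-5p varied 9.97-fold.

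Likeness of profile was measured as the SD over 9 libraries of the log2 count ratio to miR-22-3p, among 225 tested entries with counts in every library. The median entry had an SD of 0.72. The lowest was that of the endothelial miR-126a-3p, at 0.23, with miR-22-3p at 0.569 to 0.943 times its count in every library. miR-126a-3p is printed because its profile was the closest, although its seed is unrelated.
miR-126a-3p: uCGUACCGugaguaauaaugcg
Next came miR-30d-5p (0.26), the passenger strand miR-122-3p of the hepatocyte miRNA (0.27), let-7b-5p (0.27) and miR-24-3p (0.28). Only miR-126a-3p stayed among the nearest 5 in all 9 fits that left out a library, and it was itself nearest in 3 of them. With the median absolute deviation as the measure, only miR-24-3p of the 5 stayed among the nearest 5 and miR-126a-3p did not, so the set depends on the measure. miR-22-5p, the partner strand, came 76th of 225, with an SD of 0.59, below that of the median entry. The SD includes counting error, which weighs more on scarce entries such as miR-22-5p (10 to 123 counts per library).

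The 3 of the 20 most abundant miRNAs with the least similar profiles were miR-34a-5p (1.02), the profibrotic miR-21a-5p (0.74) and miR-194-5p, a hepatocyte miRNA (0.70). Among all 225 entries they came 175th, 120th and 110th, and the highest SD was 2.48. The last 2 were thus near the median entry (0.72). For miR-34a-5p the count of miR-22-3p was 0.993 times as high in flox HFFC replicate 2 and 9.26 times as high in flox chow replicate 3. These ratios are descriptions over 9 libraries that share depth and scaling with every other entry.

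**Figure D4:**
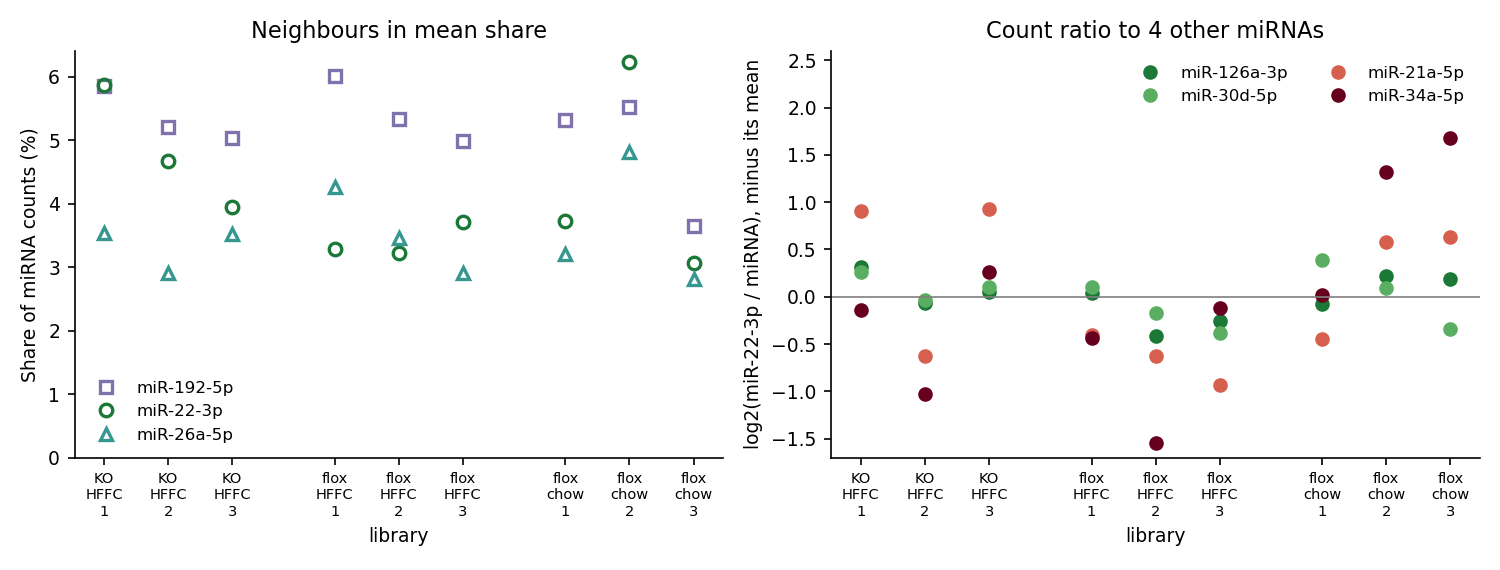
Left, share of miRNA counts (%) of miR-22-3p and of its neighbours in mean share in each library. Right, log2 of the count of miR-22-3p over that of 4 other miRNAs, each minus its mean over the 9 libraries. The ratios to miR-126a-3p (SD 0.23) and miR-30d-5p (0.26) stay near 0, while those to miR-21a-5p (0.74) and miR-34a-5p (1.02) scatter more.

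miRNAs used as markers of cell types were read in the same libraries, because miR-22-3p is made by several of these cell types. Not all are limited to 1 cell type, as miR-192-5p is also a gut miRNA. The 4 hepatocyte miRNAs summed to 27.9% to 35.1% of counts in KO HFFC, against 24.8% to 37.2% in flox HFFC and 24.5% to 41.9% in flox chow. None of the 4 passed in any comparison. The 2 endothelial strands of miR-126a summed to 5.25% to 6.70% in KO HFFC, 4.35% to 6.18% in flox HFFC and 3.75% to 7.27% in flox chow. Like the shares of miR-22-3p, their lowest and highest values were in flox chow replicates 3 and 2. That was also so for miR-26a-5p (2.82% and 4.81%) and for the erythroid miRNAs, so it was not particular to the endothelial strands. Without miR-122-5p in the total, the share of miR-22-3p was lowest in flox HFFC replicate 2 (3.86%) and highest in KO HFFC replicate 1 (7.51%). Flox chow replicates 3 and 2 were then at 4.62% and 7.39%, so these places depended on the total used.

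The 5 erythroid miRNAs made up 0.624% to 0.793% in KO HFFC, 0.688% to 0.874% in flox HFFC and 0.520% to 1.22% in flox chow. Their lowest level was in flox chow replicate 3 and their highest in flox chow replicate 2. These were also the libraries with the lowest and highest share of miR-22-3p in all miRNA counts, though not once miR-122-5p was left out of the total. KO HFFC replicate 1, with the next highest share of miR-22-3p, had 0.635%, and a link between the 2 levels was not tested. Their median log2 fold change in KO HFFC over flox HFFC was −0.53, the value of miR-144-5p (SE 0.75, 2 to 48 counts per library). The most abundant of them, miR-451a, was at −0.43 ± 0.31 (SE). The 7 leukocyte miRNAs held 1.29% to 2.30% in KO HFFC, 1.41% to 2.20% in flox HFFC and 1.13% to 1.82% in flox chow. The 5 mesenchymal miRNAs held 1.19% to 1.68% in KO HFFC, 0.860% to 1.33% in flox HFFC and 0.665% to 1.49% in flox chow. The erythroid, leukocyte and mesenchymal sums rested mostly on 1 entry each, namely miR-451a (mean share 0.725%), miR-146a-5p (1.66%) and miR-143-3p (1.05%). In KO HFFC over flox HFFC the log2 fold changes above 0 were 5 of 5 mesenchymal, 1 of 5 erythroid, 1 of 4 hepatocyte, 2 of 7 leukocyte and 0 of 2 endothelial ones, beside 48.4% of all tested entries. Of the tested epithelial miRNAs 3 of 4 were above 0, and of the tested muscle and heart miRNAs 1 of 2. The mesenchymal values (median 0.13) were each smaller than their SE.

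Epithelial miRNAs (5) were at 0.149% to 0.221% in KO HFFC, 0.0580% to 0.233% in flox HFFC and 0.0568% to 0.109% in flox chow. Muscle and heart miRNAs, of which 4 of the 7 listed had counts, were at their highest in flox chow replicate 3, where the share of miR-22-3p was the lowest. With edgeR no tested member of these lists passed in any comparison, and miR-133a-3p, miR-499-5p and miR-200c-3p were too scarce to be tested. Without the filter edgeR called miR-200c-3p in both KO HFFC comparisons, and DESeq2 called no member. None of the markers read was at 0 in all libraries, but neither was any other of the 722 entries counted. The part of the markers in the level of miR-22-3p was not tested.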

How the data were processed

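Small RNA from 9 liver exosome samples was sequenced, and groups and replicate numbers came from the sample titles. The authors deposited counts, that is, whole-number tags per miRNA, made with Bowtie2 per the submitters' processing notes and with known miRNAs matched to miRBase per the study. Not given in the sources used here are the counting tool, the genome build and any collapsing of molecular identifiers. The RPM values deposited by the authors divide each count by all library tags, scaled to 1000000. The group means of both, a signal deposited by the authors, were not used. Every sample column was mapped.

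Differences were tested on the counts of the whole table with edgeR 4.0.16 in R 4.3.3 (TMM, filterByExpr with a minimum of 10 counts, the quasi-likelihood F test with robust estimation, and all 9 libraries without covariates), with Benjamini-Hochberg adjustment over 248 entries and a threshold of 0.05. The SE is the log2 fold change divided by the root of F, and intervals use the t distribution with the moderated degrees of freedom. The study used DEGseq, which pools a group's libraries. CPM uses the TMM-scaled totals of tested entries. Strand ratios were log2 of counts plus 0.5, compared with exact two-sided permutation tests. The hairpin was folded with ViennaRNA 2.7.2. DESeq2 1.42.0 and limma 3.58.1 (voom) were among the alternatives. The method was tested on simulated counts.

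miR-22-3p, the lists and the tests were chosen with earlier results of these data known. Named besides miR-22-3p were its partner strand, its neighbours in mean share, the 5 nearest profiles, the 3 least like it among the 20 most abundant, and members needed to describe a list (hepatocyte, erythroid, leukocyte, endothelial, mesenchymal, epithelial, and muscle and heart markers). miR-3966 was named for its sequence. 1 further list is not reported here.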

Additional observations from a re-analysis of the deposited data

How the results depend on the processing

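The fold change of miR-22-3p kept its sign and missed the threshold in all 11 other settings for KO HFFC over flox HFFC (0.20 to 0.51) and for flox HFFC over flox chow (−0.53 to −0.28). For KO HFFC over flox chow it was 0.16 with totals only, 0.16 with at least 10 counts in every library and 7.7e-06 without a filter. miR-22-5p was at −0.049 for flox HFFC over flox chow when scaled by library tags. Entries called in KO HFFC over flox HFFC were 1 with library tags, 7 without a filter and 5 with DESeq2. In KO HFFC over flox chow they were 1 with totals only, 4 with library tags, 10 without a filter and 6 with DESeq2. Without miR-122-5p in the total, the mean share of miR-22-3p was 6.27% in KO HFFC, 4.44% in flox HFFC and 5.57% in flox chow. The median absolute deviation kept 1 of the 5 nearest profiles. The cause of these shifts was not tested. The median of all entries moved by over 0.1 with totals only (0.24 in KO HFFC over flox HFFC, 0.223 in KO HFFC over flox chow), with 10 counts in every library (0.134 and 0.166) and with upper-quartile factors (−0.126 in flox HFFC over flox chow, −0.175 in KO HFFC over flox chow).

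Leaving out 1 library gave, for KO HFFC over flox HFFC, flox HFFC over flox chow and KO HFFC over flox chow in turn, 0.03 to 0.35, −0.46 to −0.13 and −0.34 to 0.11 for miR-22-3p, and −0.77 to −0.22, 0.004 to 0.58 and −0.55 to 0.084 for miR-22-5p. Strand differences were 0.55 to 1.12, −0.93 to −0.40 and −0.17 to 0.47, and entries called 0 to 5, 0 to 0 and 0 to 5. Mean shares were 4.31% to 5.27% in KO HFFC, 3.25% to 3.50% in flox HFFC and 3.40% to 4.98% in flox chow. Of the nearest profiles, 2 to 5 stayed.

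The r of deviations was −0.133 to 0.361 for same-numbered libraries of different groups and −0.488 to 0.411 for the other pairs. These ranges overlap, but they cannot exclude a pairing by replicate number. With a replicate block the values of miR-22-3p were 0.26, −0.31 and −0.05, with 0 entries called in each.

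The spread between libraries of a group beyond counting was 32.5% for miR-22-3p and 46.8% for miR-22-5p, with 3 mice per group.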
